A study of Homo sapiens with 18 samples.

Results

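The 47 genes described here encode the eukaryotic translation initiation factors (eIFs) and the kinases and binding proteins that share their EIF1 to EIF6 names. They were chosen by symbol from 20705 genes with read counts. Of 54 symbols that matched, 7 were pseudogenes and were left out. EIF1, EIF2A, EIF3C, EIF4A1, EIF4G1, EIF4EBP3 and EIF4ENIF1, which belong to the same factors, were not analysed here. Messenger RNA was measured by poly-A RNA-seq in CHL1 and A375, which are established melanoma lines, so each result concerns 1 cell line and not melanoma at large. Both lines are labelled WT for genotype. In the study's description CHL1 has wild-type BRAF and NRAS with mutant p53, and A375 has mutant BRAF with wild-type p53. Cells received the solvent DMSO (control), 1 μM of palbociclib, an inhibitor of the cell cycle kinases CDK4 and CDK6 (CDK4/6i), or 500 nM of GSK3326595, an inhibitor of the arginine methyltransferase PRMT5 (PRMT5i). CHL1 had a control, CDK4/6i and PRMT5i at 72 hours and CDK4/6i at 6 days. A375 had the same groups and a further control at 6 days. Each of the 9 groups held 2 libraries, 18 in all.

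Initiation is the step at which a ribosome is placed on the start codon. eIF2 brings the initiator tRNA to the small ribosomal subunit, eIF2B reloads eIF2 with GTP, and stress kinases switch this off by phosphorylating the alpha subunit of eIF2. eIF3 is the large scaffold of the small subunit, eIF4F binds the mRNA cap and unwinds the leader, and the 4E-binding proteins hold back the cap-binding subunit eIF4E when mTOR is inactive. eIF5, eIF5B and eIF6 act on start codon choice and subunit joining, while eIF5A carries the amino acid hypusine and keeps elongating ribosomes moving.

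Library totals ranged from 16213475 to 37424081 counts, and all 47 genes were counted in every library. The labels do not say that replicates came from separate cultures, so p-values measure the spread between these samples, which may be technical. All 3 CHL1 treatments share the same 72-hour control, and both A375 treatments of 72 hours share theirs. The A375 libraries of 72 hours carry names of another library set than all others. In 2 groups, PRMT5i in CHL1 and the 6-day control of A375, transcripts rich in G and C were under-represented. From the GC-poorest to the GC-richest decile of genes, the log2 level relative to the median of the line's libraries shifted by -2.89 and -2.20 in the former and by -2.52 and -1.24 in the latter, against -0.19 to 0.54 elsewhere. Changes that rest on these groups are therefore given with and without a correction for GC content. Of the melanocyte markers, MITF lay between 63.8 and 211 CPM (reads scaled to a common library size) in all libraries, DCT reached 142 CPM in CHL1 and at most 1.79 CPM in A375, and PMEL and TYRP1 stayed under 5 CPM. The leukocyte gene PTPRC lay at 7.41 to 16.8 CPM in CHL1 and at 0.145 to 0.588 CPM in A375, and its part in the results was not tested.

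Many mRNAs of the translation machinery begin with a C followed by a run of pyrimidines, the feature through which mTOR and LARP1 control their translation. The starts of 38 of the 47 genes were found in RefSeq's table for GRCh38.p14, as 52 start positions. A run of at least 5 pyrimidines from a C, beginning within 5 bases of the annotated start, was present in 16 of the 52 starts (30.8%) against 21.1% of all 35116 starts. Those of 7 genes that recur below are shown as 20 bases from that C, 5′ to 3′, with the run in capitals.
EIF3F: CCTCCTTCTTTCTCgacaag
EIF2S3: CCTTCCTCTTTTggcaacat
EIF3D: CCTCTTTTCCTggtttctca
EIF3K: CCTCTTCCTgttcccgtcct
EIF3M: CCCTTTTCCggtcggcgtgg
EIF4A2: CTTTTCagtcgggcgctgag
EIF4B: CTTTTgcgttctctttccct
The run was longest in EIF3F, with 14 pyrimidines, and spanned 5 bases in EIF4B.

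The E-box CACGTG, a palindrome bound by MYC and by MITF, was searched in the 250 bases before each start. It lay in 10 of the 52 starts (19.2%), each of a different gene, against 6.34% of all starts. The windows of EIF2B3, EIF4B and EIF3K are shown because levels of these genes in single libraries are given below, and that of EIF4E because it encodes the cap-binding subunit. Each is given on the strand of its gene with the E-box in capitals.
EIF2B3: cagagggacaCACGTGtcgaatgctc
EIF4B: ccgctataatCACGTGattgcctcat
EIF3K: aggaagaagtCACGTGgcagccggaa
EIF4E: acatatccgtCACGTGgccagaagct
On GRCh38.p14 these windows are chr1:44986759-44986784, chr12:53006424-53006449, chr19:38619075-38619100 and chr4:98929190-98929215. The E2F motifs TTTCGCGC and TTTGGCGC and the cyclic AMP element TGACGTCA were searched on both strands of the 250 bases before each start. They were in 0 of the 52 starts, against 0.968% and 1.65% of all starts. A match is a string of letters and not a measured binding site.

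Per kilobase of transcript, the eIF3 subunits led the order of levels in both untreated lines. In the CHL1 control EIF3E came first at 275 CPM per kb, followed by EIF3L at 253, EIF3B at 178 and EIF4H at 177 CPM per kb, and the latter 2 did not differ beyond their spread. In the A375 control of 72 hours EIF3K came first at 238 CPM per kb, then EIF3I at 229, EIF3E at 190 and EIF4H at 164 CPM per kb, and the first 2 of these did not differ beyond their spread. The lowest genes were the copies EIF2S3L and EIF5AL1, with 2 to 13 and 4 to 18 counts in a library. EIF2S2, EIF4B, EIF2B2 and EIF4E3 lay under 5 CPM per kb in both controls. The processed copies EIF4BP3 and EIF4BP7 had 2.08 to 30.1 and 3.66 to 17.7 CPM of their own. The values of EIF4B, EIF5A, EIF1AX, EIF2S3, EIF4H and EIF3CL, each with a near-identical copy, are uncertain because a read can match both copies. How such reads were counted was not checked. EIF3F and EIF3K also have copies with counts, EIF3FP3 and EIF3KP1, which reached at most 0.538 and 1.03 CPM.

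The 2 untreated lines differed in the levels of both genes for eIF5A. CHL1 had more of EIF5A2, the second gene for eIF5A, and A375 more of EIF5A itself. EIF5A2 was at 77.3 and 71.1 CPM in the CHL1 controls and at 11.8 and 11.7 CPM in those of A375. EIF5A was at 66.3 and 46.3 CPM in CHL1 and at 169 and 243 CPM in A375, so neither gene overlapped between the lines. The log2 difference of CHL1 minus A375 was 2.65 ± 0.23 (SE, 2 libraries in each group here and below) for EIF5A2 and -1.87 ± 0.29 for EIF5A in edgeR's quasi-likelihood test, with Benjamini-Hochberg adjusted p of 1.4e-08 and 2.1e-05. Per kilobase, EIF5A2 reached 0.266 and 0.350 of EIF5A in the CHL1 controls and 0.0160 and 0.0110 of it in the A375 controls, so EIF5A was the more abundant of the pair in both lines.

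In all, 15 genes were higher in CHL1 and 12 lower, 27 of 47, where 58.9% of all genes passed the same test (adjusted p below 0.05). EIF4EBP2, which encodes 4E-BP2, was 1.54 ± 0.20 higher on the log2 scale, and EIF5B, the GTPase of subunit joining, 1.25 ± 0.21 higher. EIF4EBP1 and EIF4E were higher too, by 0.66 ± 0.20 and 0.78 ± 0.21. The lower genes were led after EIF5A by EIF6, which keeps the ribosomal subunits apart, at -1.58 ± 0.25, EIF2D, which delivers tRNA without GTP, at -1.50 ± 0.15, and the eIF3 subunits EIF3K (-1.39 ± 0.20), EIF3M (-1.33 ± 0.18) and EIF3G (-1.25 ± 0.22). With the GC correction 14 genes were higher and 17 lower, where 69.6% of all genes were called, and each gene named in this comparison stayed on its side. Line, medium and library set cannot be told apart here.

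**Figure D1:**
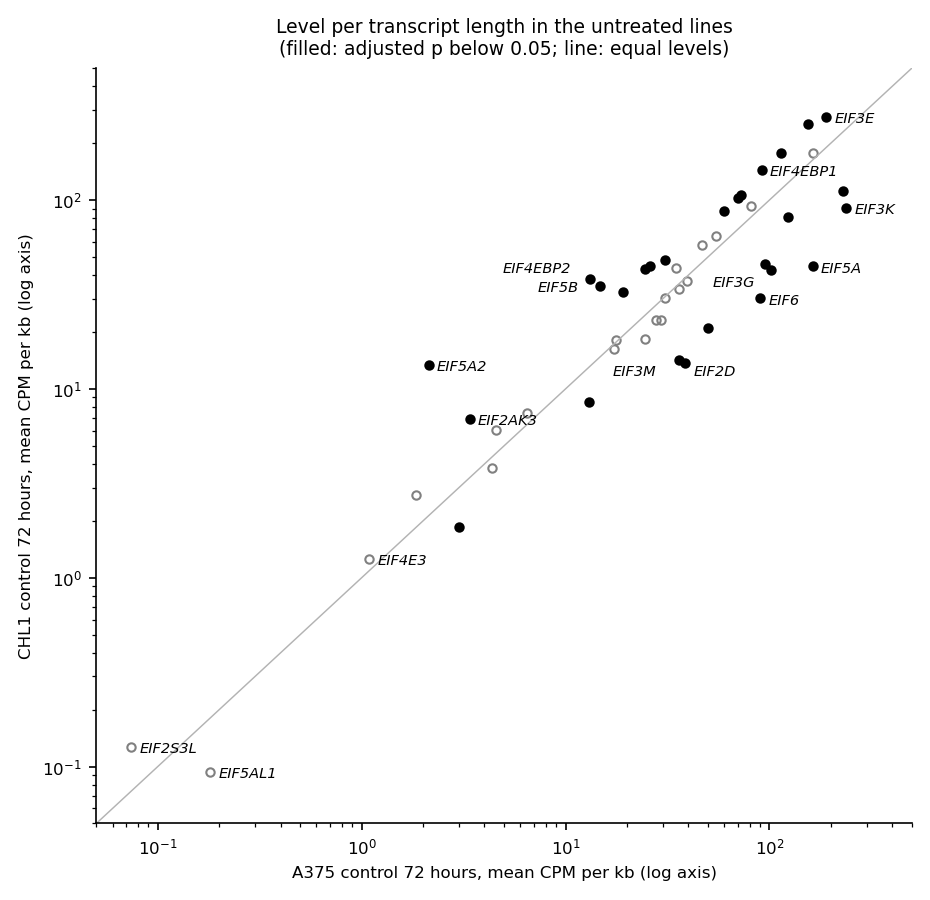
Mean CPM per kb of transcript in the 72-hour controls of A375 (x axis) and CHL1 (y axis), both log scaled, for the 47 genes. Each point sets the means of 2 libraries of each line against each other, filled where the adjusted p of the difference was below 0.05 and open otherwise. EIF5A2 and EIF4EBP2 lie above the line of equal levels and EIF5A and EIF6 below it.

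The comparison of CDK4/6i with control in CHL1 asked how the factor genes behave while the kinases of the G1 phase are blocked. At 72 hours 0 of 47 genes passed the threshold (4.98% of all genes did). In edgeR 2 had an unadjusted p below 0.05, where 4161 of all 20705 genes did, and DESeq2 called 1. CHL1 had no 6-day control, so its 6-day cells were set against the control of 72 hours. Drug and time in culture cannot be told apart there. At 6 days 3 genes fell and none rose, where 16.6% of all genes were called. They were EIF4EBP1, the repressor of eIF4E, EIF4B, the partner of the helicase eIF4A, and EIF2B3, the gamma subunit of eIF2B. The other 44 did not pass, and the median log2 fold change over the 47 genes was -0.16, against 0.03 over all genes.

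EIF4EBP1 had 118 and 120.4 CPM in the CHL1 controls, 99.3 and 98.2 CPM after 72 hours of CDK4/6i and 74.6 and 63.4 CPM after 6 days. Both treated pairs lay below both controls, and the 6-day pair below that of 72 hours. The log2 fold change was -0.28 ± 0.21 at 72 hours, with adjusted p = 0.51 by edgeR, and -0.78 ± 0.21 at 6 days, with adjusted p = 0.025 by edgeR. EIF2B3 went from 57.9 and 57.5 CPM in the controls to 37.7 and 43.0 CPM at 72 hours and 36.6 and 35.6 CPM at 6 days. Its groups did not overlap with the control either, with log2 fold changes of -0.52 ± 0.15 (edgeR adjusted p = 0.073) and -0.66 ± 0.15 (edgeR adjusted p = 0.013). EIF4B had 14.8 and 14.6 CPM in the controls, 11.1 and 8.81 CPM at 72 hours and 8.73 and 9.59 CPM at 6 days. All 4 of its treated libraries were below both controls, and the 6-day change was -0.67 ± 0.20 (edgeR adjusted p = 0.036). The test between the times called 0 of the 47 genes in CHL1, where it called 0.0145% of all genes. An unadjusted p below 0.05 was found for 3 in edgeR, where 1634 of all 20705 genes had one. DESeq2 gave 3 as well, where 1279 of all genes had one, and called 0.

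**Figure D2:**
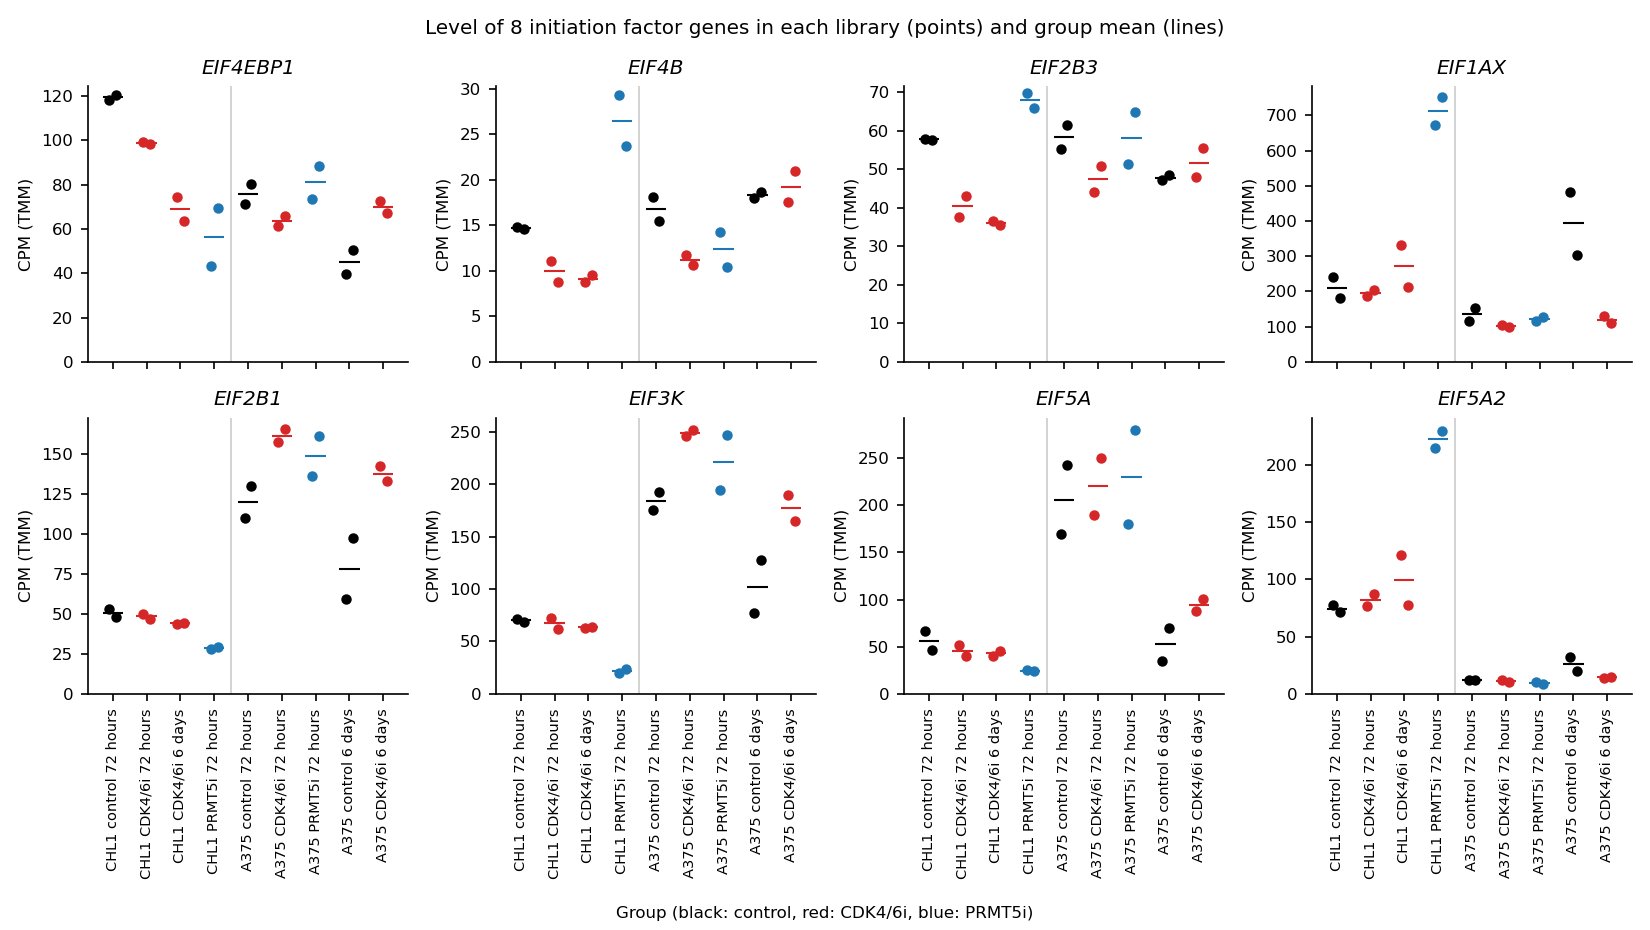
TMM-scaled CPM (y axes, starting at 0) of 8 genes in each of the 18 libraries, by group (x axis). Points are libraries and short lines are group means, with controls in black, CDK4/6i in red and PRMT5i in blue. EIF4EBP1, EIF4B and EIF2B3 lie below both controls in both CHL1 groups with CDK4/6i, and EIF5A2 is higher and EIF5A lower in the CHL1 control than in the 72-hour control of A375. The values are not scaled for transcript length, so heights do not compare 1 gene with another.

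With the GC correction the same 3 genes stayed called at 6 days in CHL1, and 7 more fell, giving 10 of 45 where 33.1% of all genes were called. EIF4EBP1 then stood at -1.01, EIF2B3 at -0.61 and EIF4B at -0.57. The added genes were the eIF3 subunits EIF3E (-0.63), EIF3H (-0.39) and EIF3M (-0.50), the cap-binding genes EIF4E (-0.33) and EIF4E2 (-0.44), EIF4H (-0.39) and EIF6 (-0.55). At 72 hours the correction called EIF2B3 (-0.48) and EIF4EBP1 (-0.45), where it called 17% of all genes. The uncorrected calls at 6 days depend on single libraries. Without the first or the second control library the test called 0 of the 47 genes, where it called 5.4% and 3.05% of all genes. Without the first treated library EIF4EBP1, EIF2B3 and EIF3E (-0.77) fell, where 12.5% of all genes were called. Without the second, none fell, and EIF1AX (0.68) and EIF5A2 (0.74), named here after their values were seen, rose, where 11.1% of all genes were called. EIF4EBP1 and EIF2B3 thus passed in 1 of these 4 fits and EIF4B in 0, while each stayed negative in all 4.

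In A375, CDK4/6i at 72 hours again gave 0 calls in the fit of all A375 libraries, while 13.3% of all genes were called. In edgeR 5 genes had an unadjusted p below 0.05, where 5731 of all 20705 did, and DESeq2 called 1. The genes with the lowest p were EIF4B, with 18.1 and 15.5 CPM in the controls and 11.7 and 10.7 CPM in the treated cells, and EIF4EBP2, with 92.7 and 104 CPM against 143 and 147 CPM. Neither overlapped between the groups, as held for 30 of the 47 genes in this comparison, and the share over all genes was not computed. Their log2 fold changes were -0.65 ± 0.22 (edgeR adjusted p = 0.063) and 0.50 ± 0.18 (edgeR adjusted p = 0.079), and that of EIF4EBP1 was -0.31 ± 0.18 (edgeR adjusted p = 0.30).

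The count at 72 hours depends on whether the 6-day libraries of A375, whose controls differ widely from each other, share in the estimate of the spread. A fit of the 6 libraries of 72 hours, without pairing, called 11 genes, where it called 31% of all genes. EIF4EBP2 (0.50), EIF2B4 (0.56), EIF2B1 (0.37) and EIF3K (0.38) rose in it. EIF4B (-0.65), EIF4E (-0.49), EIF4E3 (-0.79), EIF1AX (-0.47), EIF4EBP1 (-0.31), EIF2B3 (-0.36) and EIF2AK2 (-0.46), which encodes the RNA-activated kinase PKR, fell. With the GC correction in the fit of all A375 libraries EIF4B (-0.58) and EIF4EBP1 (-0.52) fell and EIF4EBP2 (0.57) rose, where 29.3% of all genes were called. With equal replicate numbers paired as a block, the 6 libraries gave 9 rises and 12 falls, where 42.3% of all genes were called. In a fit of both lines, 0 of the 47 genes differed in their response at 72 hours, where 0.642% of all genes did. None had an unadjusted p below 0.05 in edgeR, where 2073 of all 20705 genes did, nor did DESeq2 call any. EIF4EBP1 and EIF4B differed between the lines by -0.02 ± 0.28 and 0.02 ± 0.29 on the log2 scale.

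At 6 days of CDK4/6i in A375, 15 genes rose and 8 fell against the control of the same time, 23 of 47, where 43.1% of all genes were called. EIF5A (0.83 ± 0.30), EIF2B1 (0.80 ± 0.22), EIF3K (0.78 ± 0.23) and EIF3D (0.71 ± 0.20) led the rising genes. EIF1AX, which encodes the scanning factor eIF1A, fell the most, by 1.71 on the log2 scale (SE 0.22), followed by EIF4E (-1.16 ± 0.19), EIF2AK2 (-1.004 ± 0.19) and EIF3J (-0.90 ± 0.21). These values turn on the 6-day control. EIF1AX was at 483 and 304 CPM in it, against 131 and 109 CPM in the treated cells and 117 and 154 CPM in the 72-hour control. The treated libraries overlapped with the 72-hour control, and the 6-day control stood apart from both. The count itself fell to 5 without the first treated library, to 13 without the second and to 11 without the first control library, and rose to 32 without the second. The shares of all genes called in these fits were 29.4%, 31%, 34.3% and 55.5%.

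With the GC correction 8 genes rose and 3 fell at 6 days in A375, 11 of 45, where 42.3% of all genes were called. EIF2B1 (0.90), EIF3D (0.40) and EIF4G2 (0.89), which encodes a relative of eIF4G that lacks the part binding eIF4E, were higher in both fits. EIF1AX (-0.63), EIF1B (-0.42) and EIF4G3 (-0.56), the scaffold eIF4G3, were lower in both. EIF2S3 (0.72), EIF3F (0.70), EIF3M (0.63), EIF4A2 (0.61) and EIF2AK1 (0.40) were called only with the correction. Against the 72-hour control only 4 genes were called, where 31.2% of all genes were, and all 4 were lower. They were EIF2AK2 (-0.78), EIF4E3 (-4.05), EIF4H (-0.71) and EIF5A (-1.18), so EIF5A changed direction with the choice of control. EIF3D, EIF3K, EIF6, EIF3B, EIF3J and EIF5A2 changed direction too in the uncorrected fits, though none of them was called against the 72-hour control. EIF4E3, a weak cap-binding homolog, was at 10.7 and 11.1 CPM in the 72-hour control and at 1.02 and 2.04 CPM in the 6-day control, and time and library set cannot be told apart in this difference.

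PRMT5i in CHL1 gave the widest changes. The uncorrected test called 35 of 47 genes, 16 higher and 19 lower, where 54% of all genes were called. The direction followed the base composition of the transcripts: the genes that rose had a median GC content of 38.5% (33.9% to 46.3%) and those that fell one of 52.0% (43.4% to 62.9%). Across 45 of the genes, Spearman's rho of the log2 fold change with GC content was -0.84, and across 16356 genes with a value it was -0.77. These are correlations across genes measured in the same libraries, given as a description. In A375 at 6 days, where the control carries the GC trend, rho was 0.83 over the same 45 genes. The correction lowered these values to -0.18 and -0.04, and whether the trend is technical was not tested.

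**Figure D3:**
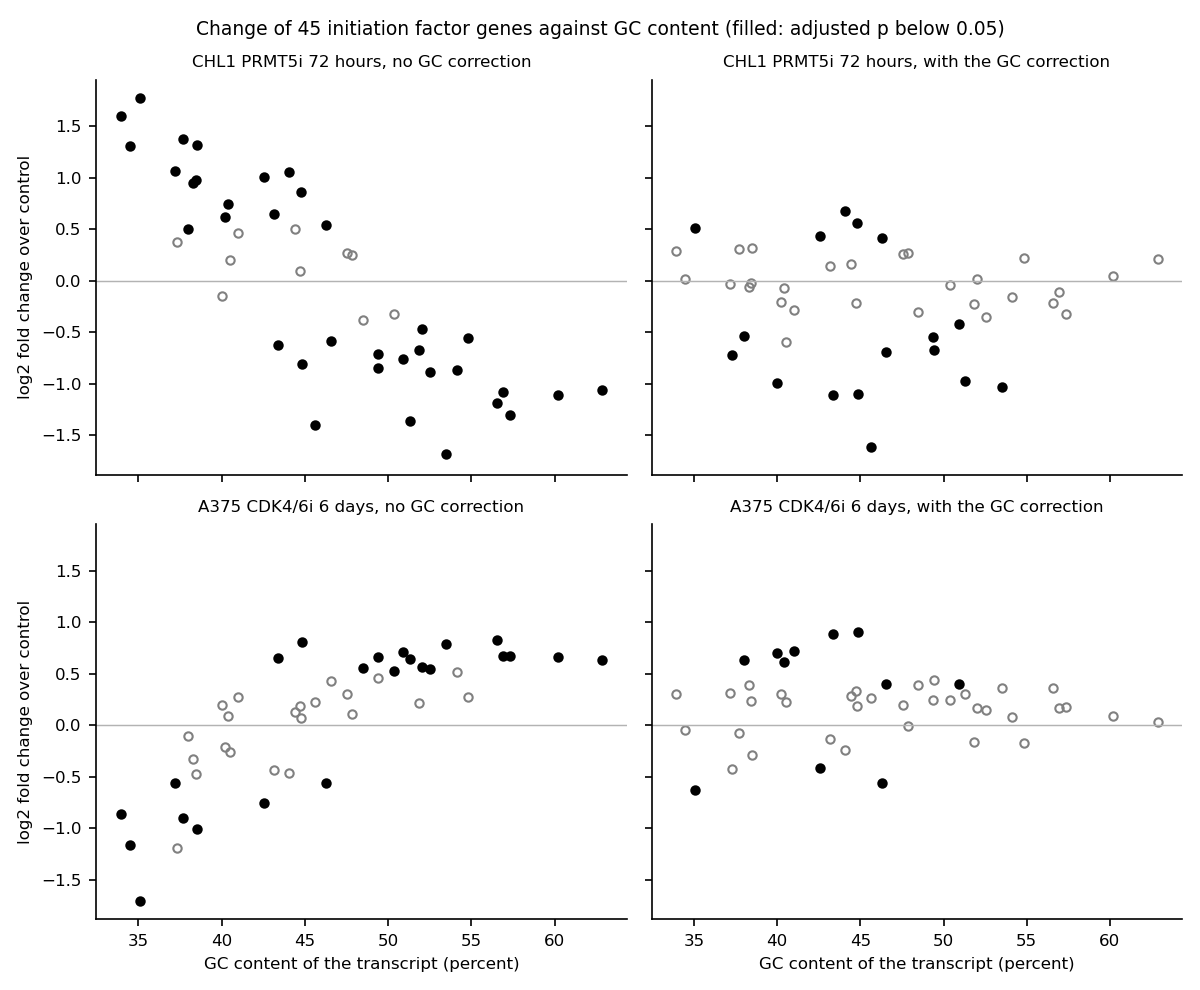
Log2 fold change over control (y axis) against the GC content of the transcript in percent (x axis) for 45 of the genes, for PRMT5i in CHL1 (top) and CDK4/6i at 6 days in A375 (bottom), without (left) and with (right) the GC correction. Filled points had an adjusted p below 0.05. Without the correction rho is -0.84 at the top and 0.83 at the bottom.

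After the correction 5 genes rose and 12 fell with PRMT5i in CHL1, 17 of 45, where 34% of all genes were called. Of these, 14 were called in the same direction without it, EIF3M in the opposite one, and EIF3F and EIF4E3 (0.38 ± 0.20, then -0.72) only with it. They include 2 of the 5 subunits of eIF2B. EIF2B2, the beta subunit, fell from 8.77 and 7.23 CPM to 3.52 and 2.44 CPM, a log2 fold change of -1.40 ± 0.24 without the correction and -1.61 with it. EIF2B1, the alpha subunit that senses phosphorylated eIF2, fell from 53.2 and 48.0 CPM to 28.1 and 29.0 CPM, or by -0.81 ± 0.15 and -1.10. In both genes the treated libraries lay below both controls. EIF2B4 (-0.86 ± 0.22) and EIF2B5 (-0.89 ± 0.15) were called lower only without the correction, and EIF2B3 was not called in either fit (0.25 ± 0.15).

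Within eIF3, 5 of 13 subunits rose and 6 fell without the correction, where 54% of all genes were called, and 5 fell and none rose with it, where 34% were. EIF3K fell from 71.6 and 68.7 CPM to 19.98 and 23.3 CPM, and EIF3I from 166 and 153 CPM to 59.3 and 63.3 CPM. Neither gene's groups overlapped, as held for 44 of the 47 genes in this comparison, and the share over all genes was not computed. The log2 fold changes were -1.68 ± 0.16 for EIF3K (edgeR adjusted p = 8.2e-05) and -1.36 ± 0.15 for EIF3I (edgeR adjusted p = 8.4e-05), and -1.03 and -0.97 with the correction. EIF3D, the subunit that can bind the cap itself, fell in both fits (-0.76 ± 0.17 and -0.42). EIF3F was called only with the correction (-0.15 ± 0.16, then -0.996), and EIF3M turned from a rise of 0.50 ± 0.18 to a fall of 0.54. EIF3J, EIF3E, EIF3H and EIF3A rose by 1.37, 1.07, 0.62 and 0.64 without the correction. With it they stood at 0.31, -0.03, -0.21 and 0.14 and were not called, and neither were EIF3B (-1.08, then -0.11) and EIF3G (-1.11, then 0.04).

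Among the kinases of eIF2 alpha, EIF2AK3 rose and EIF2AK1 fell in both fits. EIF2AK3, which encodes PERK, the kinase of endoplasmic reticulum stress, went from 29.1 and 34.1 CPM to 66.2 and 63.7 CPM (1.06 ± 0.17, and 0.68 with the correction). EIF2AK1, which encodes the heme-regulated kinase, went from 199 and 181 CPM to 137 and 112 CPM (-0.59 ± 0.16, then -0.69). The groups of neither gene overlapped. EIF2AK2 was called only without the correction (1.31 ± 0.16, then 0.32), and EIF2AK4, which encodes the amino acid sensor GCN2, was called in neither (0.27 ± 0.14). Of the 3 subunits of eIF2 itself, EIF2S1 passed only without the correction (0.95 ± 0.20, then -0.06), and EIF2S2 (0.51 ± 0.22) and EIF2S3 (0.46 ± 0.19) did not pass.

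In the cap-binding group EIF4G2 fell from 414 and 367 CPM to 286 and 213 CPM and EIF4G3 rose from 514 and 606 CPM to 768 and 836 CPM with PRMT5i in CHL1. Both calls stood in both fits, at -0.63 ± 0.17 and -1.11 for EIF4G2 and at 0.54 ± 0.15 and 0.41 for EIF4G3. EIF4B rose from 14.8 and 14.6 CPM to 29.3 and 23.7 CPM (0.86 ± 0.19, then 0.56), while it fell under CDK4/6i at 6 days against the same controls. EIF4A3, the helicase of the exon junction complex, fell (-0.85 ± 0.16, then -0.67). EIF4E and EIF4EBP1 moved apart without the correction, at 1.31 ± 0.21 and -1.06 ± 0.21, but with it stood at 0.02 and 0.21 and were not called.

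The start codon factors EIF1AX and EIF1B rose in both fits with PRMT5i in CHL1. EIF1AX went from 240.3 and 182 CPM to 674 and 751 CPM (1.77 ± 0.22, then 0.51) and EIF1B from 18.5 and 17.98 CPM to 41.8 and 30.6 CPM (1.01 ± 0.19, then 0.43). EIF1AD, whose product resembles eIF1A, fell (-0.72 ± 0.18, then -0.54). EIF5A2 (1.60 ± 0.21) and EIF5A (-1.18 ± 0.20) moved apart without the correction, and at 0.29 and -0.22 were not called with it. The same held for EIF5B (0.97 ± 0.20, then -0.02) and EIF6 (-1.31 ± 0.21, then -0.32). EIF5 was called in neither fit (0.20 ± 0.23).

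**Figure D4:**
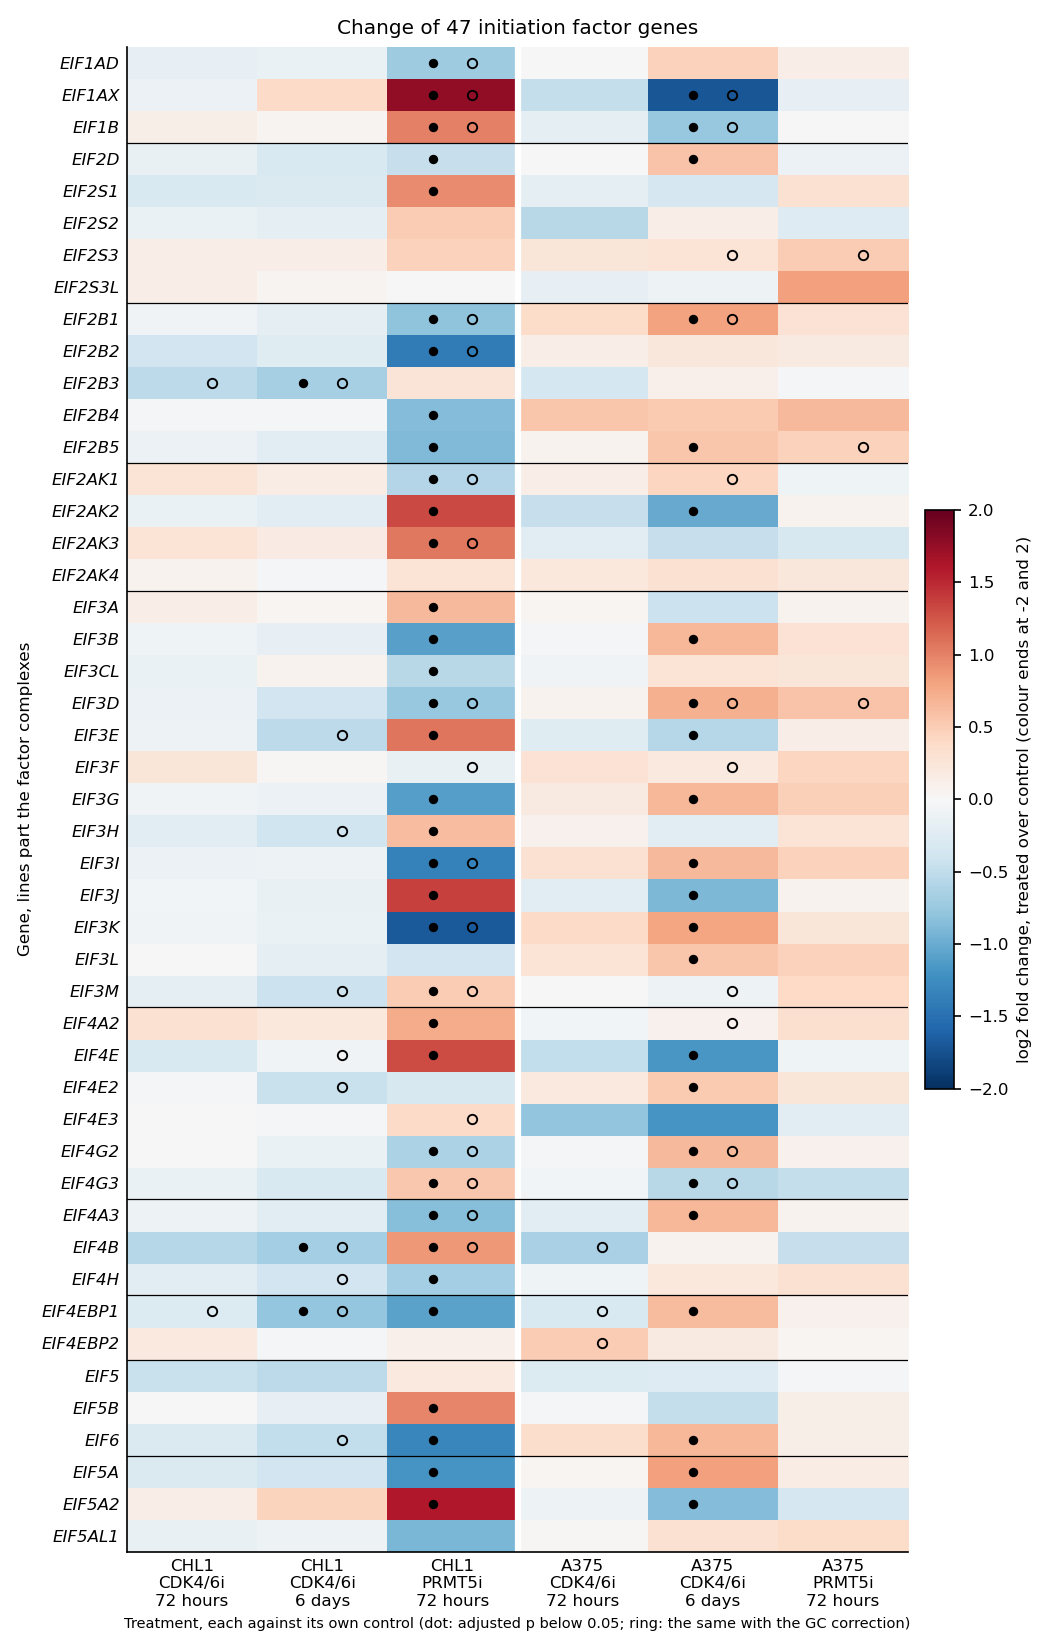
Log2 fold change over control (colour) of the 47 genes (rows, parted by complex) under each of the 6 treatments (columns). A dot marks an adjusted p below 0.05 and a ring the same with the GC correction, which covered 45 genes and whose direction can differ from the colour, as for EIF3M and EIF4E3 with PRMT5i in CHL1. Calls without a ring crowd in the columns of PRMT5i in CHL1 and of 6 days of CDK4/6i in A375.

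In A375 the same dose of PRMT5i for the same time gave 0 calls among the 47 genes in the fit of all A375 libraries, where 2.61% of all genes were called. In edgeR 9 had an unadjusted p below 0.05, where 3332 of all 20705 genes did, and DESeq2 called 0. Of the 47 log2 fold changes 35 were positive, and their median was 0.14, against 0.00 over all genes. This lean depended on single libraries. The median was -0.04 without the second PRMT5i library and 0.27 without the first. EIF3D had 167 and 190.05 CPM in the controls and 247 and 288 CPM with PRMT5i (0.57 ± 0.20, edgeR adjusted p = 0.15), and EIF2B5 had 48.0 and 49.6 CPM against 67.8 and 67.6 CPM (0.46 ± 0.19, edgeR adjusted p = 0.23). Neither overlapped with its controls, as held for 25 of the 47 genes in this comparison, and the share over all genes was not computed. With the GC correction EIF3D (0.55), EIF2B5 (0.42) and EIF2S3 (0.57) rose, where 10.6% of all genes were called. In the fit of the 6 libraries of 72 hours 10 genes were called, where 15.8% of all genes were, and of these EIF2B4 (0.66), EIF2B5, EIF2S3, EIF3D, EIF3F, EIF3G, EIF3L, EIF3M and EIF4A2 rose and EIF4G3 (-0.48) fell. With equal replicate numbers paired as a block, 18 genes rose and 2 fell in these 6 libraries, where 29.5% of all genes were called. EIF2B4 (0.66), EIF3D (0.57) and EIF2S3 (0.50) had the largest rises, and EIF4G3 (-0.48) and EIF4B (-0.46) fell. The count for PRMT5i in A375 thus depends on the libraries fitted and on the pairing.

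The responses of the lines to PRMT5i differed for 30 of the 47 genes, with 11 more positive and 19 more negative in CHL1, where 40.9% of all genes differed. With the correction 4 were more positive and 14 more negative, 18 of 45 against 25.8% of all genes. Among those called in both fits, EIF3K (-1.96 ± 0.29), EIF3I (-1.85 ± 0.29) and EIF2B2 (-1.61 ± 0.32) had the largest negative differences, before EIF2B1 (-1.14 ± 0.27) and EIF2B5 (-1.38 ± 0.23). EIF2AK3 (1.35 ± 0.32), EIF4B (1.29 ± 0.29), EIF4G3 (0.99 ± 0.24) and EIF5A2 (1.90 ± 0.32) were more positive in CHL1 in both fits. The treatment effects come from different library sets, and set and line cannot be told apart.

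Under CDK4/6i at 6 days, 4 genes were more positive and 13 more negative in CHL1 than in A375, where 21.9% of all genes differed. EIF4EBP1 differed by -1.43 ± 0.28 (edgeR adjusted p = 0.0019), and by -1.04 with the correction. EIF2B3 (-0.79 ± 0.23, then -0.60), EIF2B1, EIF3D, EIF4E2, EIF4G2 and EIF6 were more negative in both fits, and EIF1AX (2.08 ± 0.33, then 0.80) was more positive in both, and with the correction 24.4% of all genes differed. CHL1 was set here against its 72-hour control and A375 against its 6-day control, and the 17 calls became 28 without the second 6-day control library of A375, where 37.2% of all genes differed, and 7 to 12 without any other library, where 12.5% to 18.6% did. For the change of the A375 response from 72 hours to 6 days, 4118 of all 20705 genes had an unadjusted p below 0.05 in edgeR. This change passed for 0 of the 47 genes, where it did so for 1.08% of all genes. In edgeR 10 had an unadjusted p below 0.05, DESeq2 called 2, and without the second 6-day control library 27 were called, where 33.9% of all genes were.

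Of 36 other genes of translation in a list of elongation, termination, poly-A binding, mTOR and helper genes, 33 could be tested. Under CDK4/6i in CHL1 1 rose at 72 hours, where 4.98% of all genes were called, and 2 rose and 3 fell at 6 days, where 16.6% were. PDCD4, which holds back the helicase eIF4A, rose at both times (0.87 and 0.87), and RPTOR, the subunit that recruits 4E-BP1 to mTOR, fell at 6 days (-0.72). Under PRMT5i in CHL1 12 rose and 13 fell, where 54% of all genes were called. DHPS and DOHH, the enzymes that make the hypusine of eIF5A, fell by 1.14 and 1.07 on the log2 scale, and no GC-corrected values were computed for this list. In A375 the counts were 2 up and 0 down for CDK4/6i at 72 hours, 10 up and 6 down at 6 days, and 0 up and 1 down for PRMT5i, where 13.3%, 43.1% and 2.61% of all genes were called. MKNK1, a kinase of eIF4E, rose in A375 at both times of CDK4/6i (0.83 and 1.08).

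The genes with a pyrimidine start and those with an E-box were compared with the rest by their medians only. Under CDK4/6i in CHL1 at 6 days the 10 genes with an E-box had a median log2 fold change of -0.17 and the 28 without one -0.15. Of the 10, EIF2B3 and EIF4B were called, where 16.6% of all genes were. The medians with and without an E-box were -0.12 and -0.10 in CHL1 after 72 hours of CDK4/6i. For PRMT5i in CHL1 they were 0.56 and -0.16, and 0.15 and -0.22 with the GC correction. CDK4/6i in A375 gave -0.21 and 0.002 after 72 hours, or -0.19 and 0.04 with the correction. It gave 0.09 and 0.28 after 6 days, and PRMT5i in A375 gave 0.04 and 0.20. Under PRMT5i in A375 the 15 genes with a pyrimidine start had a median of 0.25 and the 23 without one 0.14. In CHL1 the same comparison gave 0.10 and -0.68 without the GC correction and -0.25 and -0.13 with it, and the median GC content of the groups was 41.6% and 46.3%.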

How the data were processed

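The authors aligned paired-end poly-A reads to GRCh37 with HISAT2 (2.0.4 per the labels), counted them on Ensembl genes with HTSeq (0.11.2 per the labels) and filtered out weakly expressed genes. The deposited counts cover 20705 gene symbols. The table is called normalised, but it holds whole numbers with unequal totals and was used as raw counts. The study's methods give default settings for HTSeq, under which reads are counted by strand, and whether the library kit kept strand is not given in the sources used here. The lines were fitted separately (8 and 10 libraries), and together for differences between lines, with edgeR 4.0.16 in R 4.3.3 (TMM, quasi-likelihood test) and p-values adjusted over all genes. CPM is counts per TMM-scaled library size. Values after ± are standard errors (n = 2 libraries in each group).

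GC content and length are those of the canonical transcript in GENCODE release 44 on GRCh37. The GC correction gave edgeR, as an offset, a loess curve (span 0.4) of each library's log2 CPM deviation over GC content, for 13675 genes averaging 1 CPM or more. DESeq2 1.42.0, other scaling, a low-count filter (1 CPM in 2 libraries), only the compared groups, another A375 control, a replicate block and leaving out each library were tried as alternatives. Same-numbered libraries of A375 at 72 hours deviated together in all 3 pairs of groups (r of 0.10 to 0.35) and those of CHL1 did not in all of theirs (-0.23 to 0.27), so the blocked counts are given beside the A375 results. The scripts' edgeR fit was tested on simulated data. Members and lists were chosen with earlier results of these data known. Genes were named by size of change among those called, up to 6 in each direction, besides the core factors, named whatever they did. Between 2 groups, the former also needed a mean of 1 CPM and the libraries of 1 group beyond those of the other. For them a lack of overlap is thus no further support. In CHL1, 24 of the 47 genes lacked overlap under CDK4/6i at 72 hours and 27 at 6 days. Between the untreated lines 40 did. The share over all genes was not computed for any count of genes without overlap. The further markers CD14, VWF, KRT5, KRT14, S100B and TYR reached at most 0.713, 2.81, 1.10, 10.5, 128 and 5.02 CPM.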

Additional observations from a re-analysis of the deposited data

Results flagged for a closer look

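The responses of the lines differed past the threshold for 17 of the 47 genes under CDK4/6i at 6 days and for 30 under PRMT5i. Of all genes, 21.9% and 40.9% did. Listed here are the 6 largest of each, 12 cases in all. Under CDK4/6i at 6 days the log2 difference of CHL1 minus A375 was 2.08 for EIF1AX, -1.43 for EIF4EBP1, 1.29 for EIF5A2, -1.23 for EIF5A, -1.18 for EIF6 and -1.12 for EIF3D. With the GC correction these stood at 0.80, -1.04, -0.14, -0.78, -0.73 and -0.77, of which those of EIF5A2 and EIF5A were no longer called.

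Under PRMT5i the difference was -1.96 for EIF3K, 1.91 for EIF1AX, 1.90 for EIF5A2, -1.85 for EIF3I, -1.61 for EIF3G and -1.61 for EIF2B2. With the correction the values were -1.23, 0.53, 0.45, -1.40, -0.35 and -1.82, and those of EIF1AX and EIF3G were no longer called. Line and library set cannot be told apart in any of these.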

How the results depend on the processing

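With 2 libraries in a group, fold changes rest on little replication, and the counts of calls moved with the fit. Of 51 values of named genes, 50 kept their direction and call with DESeq2, 49 with median-of-ratios scaling, 51 with the filter on low counts, 42 with only the compared groups and 31 with the GC correction. Leaving out a library kept 216 of 252 values called and reversed none. The cause of these shifts was not tested.

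The number of the 47 genes called moved as follows, with the GC correction on 45 genes. For CDK4/6i at 72 hours in CHL1 it was 0, but 2 with the GC correction, 1 with DESeq2 and 4 with only the compared groups. Of all genes, 4.98% were called in the main fit and 17% with the GC correction. DESeq2 called 784 up and 887 down of 15962, and only the compared groups gave 2031 up and 2171 down of 20705. At 6 days in CHL1 it was 3, but 10 with the GC correction, 5 with DESeq2 and 0 to 3 with a library left out, where 2 rose in place of the 3 falls without the second treated library. For PRMT5i in CHL1 it was 35, but 17 with the GC correction, and 16 when only the compared groups were fitted as well, a fit chosen after seeing the data. Of all genes, 54% and 34% were called in the first 2 fits, and the third gave 2297 up and 2244 down of 13675. For CDK4/6i at 6 days in CHL1, 16.6% of all genes were called in the main fit and 33.1% with the GC correction. DESeq2 called 1845 up and 1963 down of 17533. For CDK4/6i at 72 hours in A375, 13.3% of all genes were called in the main fit and 29.3% with the GC correction. DESeq2 called 1483 up and 1542 down of 17026, and the genes with a GC value gave 1265 and 1232 of 13675. Only the compared groups gave 3344 up and 3596 down of 20705. For CDK4/6i at 6 days in A375, 43.1% of all genes were called in the main fit. The GC correction called 42.3% and the fit against the 72-hour control 31.2%. Only the compared groups gave 2596 up and 3266 down of 20705 there, and 1641 and 1892 of 13675 with the GC correction as well. In A375, CDK4/6i at 72 hours gave 0, but 1 with DESeq2 or with the genes that have a GC value, 3 with the GC correction and 13 with only the compared groups. At 6 days it gave 23, but 11 with the GC correction, 6 with only the compared groups, 5 with both, 4 against the 72-hour control and 5 to 32 with a library left out. PRMT5i in A375 gave 0, but 3 with the GC correction and 3 with only the compared groups. The change between times in A375 gave 0, but 1 with median-of-ratios scaling or the genes with a GC value, 2 with DESeq2 and 0 to 27 with a library left out. The difference between lines gave 0 for CDK4/6i at 72 hours, but 2 with only the compared groups, 17 at 6 days, but 3 with only the compared groups and 7 to 28 with a library left out, and 30 for PRMT5i, but 18 with the GC correction.

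Replicate numbers are given for the CHL1 libraries and those of A375 at 72 hours, and the labels do not say that they pair the samples. With a replicate block CDK4/6i at 72 hours in A375 called 21 genes and PRMT5i 20, where 42.3% and 29.5% of all genes were called, against 11 and 10 in the same 6 libraries without the block, where 31% and 15.8% were. With the block and the GC correction together the counts were 17 and 19 there. Of 13675 genes in these fits, 3553 rose and 3771 fell with CDK4/6i and 2661 and 2687 with PRMT5i. In CHL1 the counts were 3, 12 and 21 for CDK4/6i at 72 hours, at 6 days and PRMT5i. There 1147 of all genes rose and 1431 fell at 72 hours, 2141 and 2627 at 6 days and 2429 and 2412 with PRMT5i. The count was 1 for the difference between lines under CDK4/6i at 72 hours, where 668 genes were more positive in CHL1 and 600 more negative. All 21 values of named genes kept their call with the block alone. Between the times of CDK4/6i in CHL1, whose deviations correlated negatively, crossed numbers called 2 of the 47 genes and 959 of all genes, against 0 and 10 as numbered, a pairing tried after seeing the data.

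Some values reversed. With PRMT5i in CHL1, EIF3E stood at -0.0336 with the GC correction, -0.0498 with the block added and -0.0328 with only the compared groups, and EIF3G at 0.043, 0.0481 and 0.0468. For CDK4/6i at 6 days in A375, EIF5A2 stood at 0.30 with the GC correction, with all or only the compared groups, and at 0.23 against the 72-hour control, and its difference between lines at -0.14 with the correction. Against the 72-hour control, EIF5A stood at -1.18, EIF3K at -0.10, EIF3D at -0.41, EIF6 at -0.62, EIF3B at -0.33 and EIF3J at 0.0774.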
